A study of Mus musculus with 8 samples.

Results

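The Derlins and the Sel1l-Hrd1 complex were described in the mouse dentate gyrus through 10 genes: Derl1, Derl2, Derl3, Sel1l, Syvn1, Os9, Herpud1, Edem1, Edem2 and Edem3. All probes that the array design assigns to these symbols were taken, which gave 19 of the 56605 probes on the array and 10 of the 19922 gene symbols with a probe above background. The rule is by gene symbol, although the genes were chosen with earlier results of these data known. The data came from 8 single-colour Agilent arrays of RNA from the dentate gyrus, taken at 8 to 9 weeks of age from male mice of the C57BL/6 strain. Derlin-1 controls carried Derl1 flanked by loxP sites on both copies without Cre, and Derlin-1 KO mice carried the same floxed alleles with Cre recombinase under the nestin promoter (Tg(Nes-Cre)1Kag). Derlin-2 controls and Derlin-2 KO mice were made in the same way with floxed Derl2. Each of the 4 groups had 2 arrays.

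Nestin-driven Cre acts in neural stem cells and their descendants (neurons, astrocytes and oligodendrocytes). Microglia and vessel cells in the tissue should keep the intact gene, which was not tested here. The samples were whole tissue, in which fewer cells of a type and less RNA per cell cannot be told apart. The genotype label of the KO samples names only the floxed alleles, so the KO groups rest on the sample titles. Nothing in the labels says whether the 2 arrays of a group came from separate mice, and the p-values below measure the spread between these arrays only. As far as the names of the deposited arrays tell, each line lay on its own slide, with controls and KO samples together. Line and slide then cannot be told apart. KO was compared with control within a line, which gives a Derlin-1 comparison and a Derlin-2 comparison. On each array between 67.6% and 70.8% of probes exceeded background well enough to be so flagged by the scanner software. The 8 granule neuron markers (among them Prox1 and Calb1) were all above background, with summed linear signals of 42230 to 63908. The 8 markers of CA pyramidal neurons were above background as well, with sums of 43692 to 51116. The part of CA tissue in the samples was not tested.

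ER-associated degradation (ERAD) removes proteins that fail to fold in the endoplasmic reticulum (ER). Lectins such as Os9 and the mannosidase-like EDEM proteins mark faulty glycoproteins, Sel1l receives them, and the membrane-bound ubiquitin ligase Hrd1, encoded by Syvn1, passes them through the membrane for destruction by the proteasome. The Derlins are membrane proteins related to rhomboid proteases that have lost protease activity and help substrates through the membrane, and Herpud1 is a short-lived organizer of the Hrd1 complex. Many genes of this machinery are induced when unfolded proteins accumulate, through the transcription factors ATF6 and XBP1.

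These factors are known to act together with NF-Y on the ER stress response element (ERSE, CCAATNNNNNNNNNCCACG). They also act on the shorter ERSE-II (ATTGGNCCACG) and on elements with the core TGACGTG. RefSeq promoter windows (GRCm38.p6) from 250 bases before to 50 bases after the start were found for 9 of the 10 genes, in 10 windows, with none for Derl1. Both strands were searched, and the 2 forms of the ERSE share their CCACG end. ERSE was present in the windows of 2 members, Derl3 and Syvn1, and in 0.119% of all 32851 promoter windows. ERSE-II was present in 1 member, Herpud1, and in 0.0365% of all windows. The TGACGTG core was present in 0 of the member windows and in 2.01% of all windows. A match describes the letters and says nothing of binding. The 3 stretches are shown because they are the member windows with a match. They are written 5′ to 3′ on the strand of the gene (+ in all), with the matched element in capitals. Derl3 carries the element on the opposite strand.
Derl3, chr10:75893230-75893272: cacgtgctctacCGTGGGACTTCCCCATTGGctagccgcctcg
Syvn1, chr19:6046520-6046562: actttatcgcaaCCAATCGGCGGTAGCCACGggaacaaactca
Herpud1, chr8:94386365-94386399: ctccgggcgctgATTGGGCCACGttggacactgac
The Derl3 stretch begins 168 bases before the start, the Syvn1 stretch 56 bases and the Herpud1 stretch 64 bases before it.

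Derl3 had the largest difference among the 19 member probes between KO and control in both lines, and Derl2 was lower in the line in which it was targeted. With Derlin-2 control replicate 1 left out, a dim Sel1l probe (1.24) and a Derl2 probe (-0.86) exceeded the 0.79 of Derl3 under Derlin-2 deletion. The other 8 genes had brightest probes that differed from control by between -0.44 and 0.19 on the log2 scale. Values below are quantile-normalized log2 signals, and a difference of 1 corresponds to a 2-fold change. Of the 19 member probes, 0 passed an adjusted p of 0.05 in limma in either line. Over all probes, 0% of 39981 passed in the Derlin-1 comparison and 0.0452% of 39812 under Derlin-2 deletion. An unadjusted p under 0.05 was reached by 2 member probes in the Derlin-1 comparison (4.69% of all probes) and by 4 under Derlin-2 deletion (5.51% of all probes). In the Derlin-1 comparison these were Derl3 and the dimmer probe of the targeted Derl1, which was higher in KO. Under Derlin-2 deletion they were both probes of the targeted Derl2, Derl3 and Os9.

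**Figure D1:**
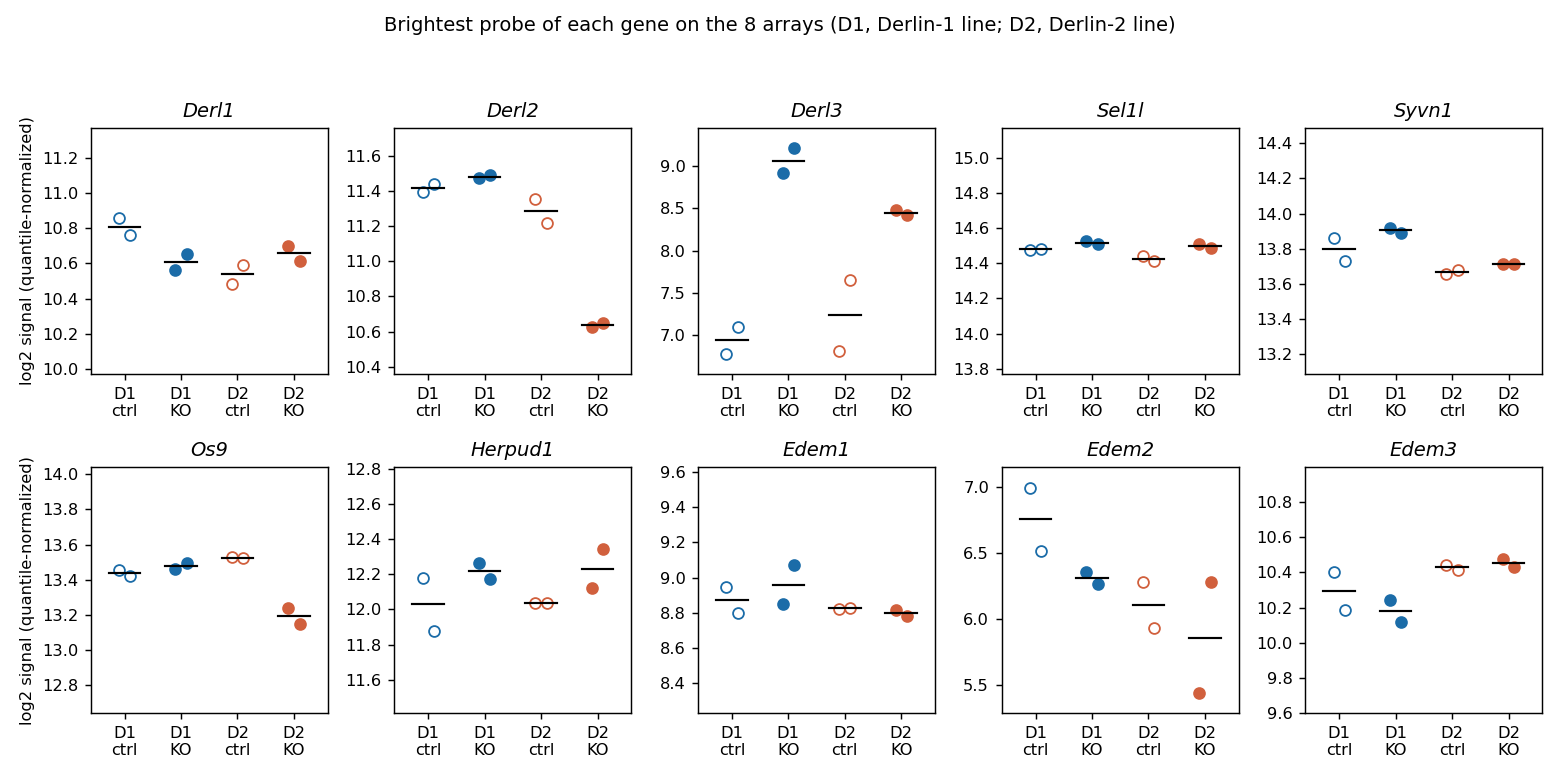
Log2 signal of the brightest probe of each of the 10 genes on each array, with open points for control, filled points for KO and a line at the mean of the 2 arrays. Each panel has its own vertical scale. Derl3 lay between 8.41 and 9.21 on the 4 KO arrays and between 6.78 and 7.66 on the 4 control arrays, and Derl2 was lowest on the Derlin-2 KO arrays.

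The targeted genes were examined first. The brightest Derl1 probe (A_51_P504522), designed on the reference mRNA, read 10.86 and 10.76 on the Derlin-1 control arrays and 10.56 and 10.66 on the arrays labelled Derlin-1 KO. Both KO arrays lay below both controls, at 87.1% of the control level, with a difference of -0.20 (SE 0.10; limma adjusted p = 1). The second Derl1 probe (A_65_P08342), designed on a cDNA clone, read 7.36 and 7.36 in controls and 7.93 and 7.70 on the KO arrays, a difference in the opposite direction of 0.46 (SE 0.12; limma adjusted p = 1). Where either probe lies relative to the loxP sites is not given in the sources used here, so neither probe settles which arrays lack Derl1, and directions in this line rest on the labels.

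Among the Derlin-2 arrays, in which Derl1 was left intact, its brightest probe gave signals of 10.49 and 10.59 for control and of 10.70 and 10.61 for KO. Both KO arrays were the higher ones, by 0.12 (SE 0.10). The second probe differed by 0.13 (SE 0.12) in the same direction. The order of the groups for the brightest probe was Derlin-1 control, Derlin-2 KO, Derlin-1 KO and Derlin-2 control, and of these neighbours only the first pair did not overlap.

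Derl2 was measured by probes for transcript variants 1 and 2, and both were lower in Derlin-2 KO. The variant 1 probe (A_51_P498831) read 11.36 and 11.22 in Derlin-2 control and 10.63 and 10.65 in Derlin-2 KO. The control mean was 11.29 ± 0.095 (SD, n = 2) and the KO mean 10.64 ± 0.015 (SD, n = 2), so that the KO arrays held 63.8% of the control signal, with a difference of -0.65 (SE 0.097; limma adjusted p = 0.257). The variant 2 probe (A_55_P2178203) read 9.12 and 8.74 in control and 7.83 and 7.93 in KO. Its signal in KO was 48.3% of control, a difference of -1.05 (SE 0.14; limma adjusted p = 0.217). Neither probe passed the threshold over all probes, although the groups did not overlap. The variant 1 probe lay in the last eighth of the array rows, and the variant 2 probe did not.

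Among the Derlin-1 arrays the Derl2 differences were smaller than their standard errors. The variant 1 probe read 11.39 and 11.44 in control and 11.47 and 11.49 in KO, which differed by 0.064 (SE 0.097). The variant 2 probe differed by 0.033 (SE 0.14) with overlapping groups, and by -0.0040 without Derlin-1 control replicate 1. The effect in the Derlin-1 comparison minus that under Derlin-2 deletion was 0.71 (SE 0.14) for variant 1 and 1.08 (SE 0.20) for variant 2. The limma adjusted p of this difference was 0.531 for both probes.

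Derl3 encodes the third Derlin, best known from secretory tissues such as pancreas and from plasma cells. Its single probe (A_55_P2743349) read 6.78 and 7.10 in Derlin-1 control and 8.92 and 9.21 on the arrays labelled Derlin-1 KO. For Derlin-2 it read 6.82 and 7.66 in control and 8.48 and 8.41 in KO. All 4 KO arrays were above all 4 control arrays. For Derlin-1 the control mean was 6.94 ± 0.22 (SD, n = 2) and the KO mean 9.06 ± 0.20 (SD, n = 2), a 4.36-fold difference or 2.12 on the log2 scale (SE 0.28; limma adjusted p = 0.927). On the Derlin-2 arrays the difference was 2.31-fold, or 1.21 (SE 0.28; limma adjusted p = 0.558). Without Derlin-2 control replicate 1 it was 0.79. The Derlin-1 difference exceeded that under Derlin-2 deletion by 0.91 (SE 0.40), which did not pass the test (limma adjusted p = 0.852). Leaving out Derlin-2 control replicate 2 made this excess 0.49, and leaving out the other Derlin-2 control array made it 1.34.

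Because plasma cells express Derl3, 6 plasma cell markers were read on the same arrays. Their summed linear signal was 136 to 147 in Derlin-1 control and 152 to 176 in Derlin-1 KO, and 110 to 124 in Derlin-2 control and 121 to 123 in Derlin-2 KO. These markers were dim, with mean log2 signals of 2.75 to 5.37, where the lowest signal that the scanner software called well above background was 3.65 to 4.17 over the arrays. Pou2af1 alone was well above background on all 8 arrays, and it differed by 0.24 in the Derlin-1 comparison and by 0.69 under Derlin-2 deletion. Cd79a had positive differences in both lines as well, 0.64 and 0.30, and Sdc1 negative ones, -0.18 and -0.17. Jchain, Mzb1 and Tnfrsf17 had differences of opposite sign in the lines. Of the 6 markers, 4 had a positive difference in the Derlin-1 comparison and 3 under Derlin-2 deletion. The part of such cells in the Derl3 values was not tested. Of 4 blood markers measured, all had a negative difference in the Derlin-1 comparison, with a median of -0.57, and -0.11 for Derlin-2. Median differences for Derlin-1 and then Derlin-2 were 0.37 and 0.065 for the plasma cell list, 0.38 and 0.049 for choroid plexus, and 0.18 and 0.20 for meningeal fibroblasts. They were 0.21 and -0.071 for CA pyramidal neurons, 0.036 and -0.017 for granule neurons, and -0.030 and -0.0080 for astrocytes. Oligodendrocytes had -0.00022 and 0.11, microglia -0.12 and 0.053, and endothelium 0.0094 and 0.055. The part of these cell types in the members' values was not tested.

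Sel1l, the adaptor that hands substrates to Hrd1, had 3 probes, none of which passed the test. The brightest (A_55_P2914531, transcript variant 1, last eighth of the rows) read 14.48 and 14.48 in Derlin-1 control and 14.53 and 14.51 in KO, and 14.44 and 14.41 in Derlin-2 control and 14.51 and 14.49 in KO. Both KO arrays were above both controls in each line, yet the differences were small, 0.038 (SE 0.088) and 0.072 (SE 0.088). This probe had the narrowest range of the 19 over the 8 arrays, 0.12. The second probe (A_51_P155675) differed by 0.13 (SE 0.19) in the Derlin-1 comparison and 0.33 (SE 0.19) under Derlin-2 deletion, without overlap in the latter. Leaving out Derlin-1 control replicate 2 turned its Derlin-1 difference to -0.13. The dimmest probe (A_52_P107434), designed on an Ensembl transcript, was well above background on only 1 of the 2 arrays in each Derlin-2 group. Its differences of 0.40 and 0.53 carried an SE of 0.47, and the second ranged from -0.17 to 1.24 when 1 Derlin-2 control array was left out.

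Syvn1, which encodes the ubiquitin ligase Hrd1, had 1 probe (A_51_P176341). It read 13.86 and 13.73 in Derlin-1 control and 13.92 and 13.89 in Derlin-1 KO. Within the Derlin-2 groups it read 13.66 and 13.68 in control and 13.72 and 13.71 in KO. The KO arrays were thus higher in both lines without overlap, by 0.11 (SE 0.095) and 0.047 (SE 0.095), sizes of about 1 standard error or less. The order of the groups was Derlin-1 KO, Derlin-1 control, Derlin-2 KO and Derlin-2 control, with no overlap between neighbours.

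Os9, an ER lectin that binds trimmed glycans and delivers substrates to Sel1l, had differences of opposite sign in the lines. Its probe (A_51_P109171, transcript variant 2) read 13.53 and 13.52 in Derlin-2 control and 13.24 and 13.15 in Derlin-2 KO. The KO level was 79.5% of control, a difference of -0.33 (SE 0.093; limma adjusted p = 0.672). On the Derlin-1 arrays it read 13.45 and 13.42 in control and 13.46 and 13.50 in KO, a difference of 0.044 (SE 0.093). The difference between the effects was 0.37 (SE 0.13) and did not pass the threshold (limma adjusted p = 0.81).

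Herpud1, an ER membrane protein with a ubiquitin-like domain, had 2 probes, and all 4 of their differences were positive and below 1.5 times their SE. The brighter one (A_51_P434101) read 12.18 and 11.88 in Derlin-1 control and 12.26 and 12.17 in KO, so the groups overlapped. It read 12.04 and 12.04 in Derlin-2 control and 12.12 and 12.34 in KO, where they did not. The differences were 0.19 (SE 0.14) in each line. The Derlin-1 value ranged from 0.034 without Derlin-1 control replicate 2 to 0.34 without Derlin-1 control replicate 1, and the Derlin-2 value from 0.083 without Derlin-2 KO replicate 2 to 0.30 without the other KO array. The second probe (A_55_P2810587, last eighth of the rows) differed by 0.20 (SE 0.17) in the Derlin-1 comparison and by 0.090 (SE 0.17) under Derlin-2 deletion. Leaving out Derlin-2 control replicate 2 turned the latter to -0.088 and leaving out Derlin-2 KO replicate 2 to -0.022.

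The EDEM proteins trim mannose from faulty glycoproteins and so commit them to degradation, and their probes showed no common direction. The brighter Edem1 probe (A_51_P503866) read 8.95 and 8.80 in Derlin-1 control and 8.85 and 9.07 in KO, with overlap. For the Derlin-2 mice it read 8.82 and 8.83 in control and 8.81 and 8.78 in KO, lower by little. The differences were 0.087 (SE 0.12) and -0.027 (SE 0.12), and without Derlin-1 KO replicate 2 the first was -0.025. The dim Edem1 probe (A_52_P354520, last eighth of the rows) overlapped in both lines, with differences of 0.084 and -0.11 (SE 0.25). The first was -0.12 without Derlin-1 control replicate 2 and -0.017 without Derlin-1 KO replicate 1, and the second 0.23 without Derlin-2 control replicate 2.

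Edem2 was represented by dim probes that parted under Derlin-2 deletion. Probe A_52_P317040 read 6.99 and 6.51 in Derlin-1 control and 6.36 and 6.26 in KO, a difference of -0.44 (SE 0.31). On the Derlin-2 arrays it read 6.28 and 5.93 in control and 5.44 and 6.28 in KO, with overlap and a difference of -0.25 (SE 0.31). It became 0.17 without Derlin-2 KO replicate 1. Probe A_66_P116864 read 6.60 and 6.06 in Derlin-1 control and 6.01 and 5.75 in KO, a difference of -0.45 (SE 0.21). It was -0.17 without Derlin-1 control replicate 1 and -0.72 without Derlin-1 control replicate 2. Among the Derlin-2 arrays the same probe read 5.66 and 5.43 in control and 5.91 and 5.95 in KO, a difference of 0.39 (SE 0.21). The Derlin-1 effect minus the Derlin-2 effect for this probe was -0.83 (SE 0.29; limma adjusted p = 0.81).

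Edem3 had 3 probes that also disagreed. The brightest (A_52_P139588) read 10.40 and 10.19 in Derlin-1 control and 10.25 and 10.12 in KO, and 10.44 and 10.42 in Derlin-2 control and 10.48 and 10.43 in KO. Groups overlapped in both lines, with differences of -0.11 (SE 0.11) and 0.025 (SE 0.11). Probe A_55_P2935620, for which the tables give no transcript, had both Derlin-1 KO arrays above control, by 0.39 (SE 0.27), and differed by -0.23 (SE 0.27) under Derlin-2 deletion. The latter became 0.19 without Derlin-2 control replicate 1, which read 8.16 against 7.32 for the other control. The dimmest probe (A_55_P2744221) overlapped in both lines, with differences of 0.092 and 0.11 (SE 0.19). The first was -0.058 without Derlin-1 control replicate 1 and -0.023 without Derlin-1 KO replicate 2. The second was -0.013 without Derlin-2 control replicate 1, and leaving out Derlin-2 KO replicate 2 gave -0.075.

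**Figure D2:**
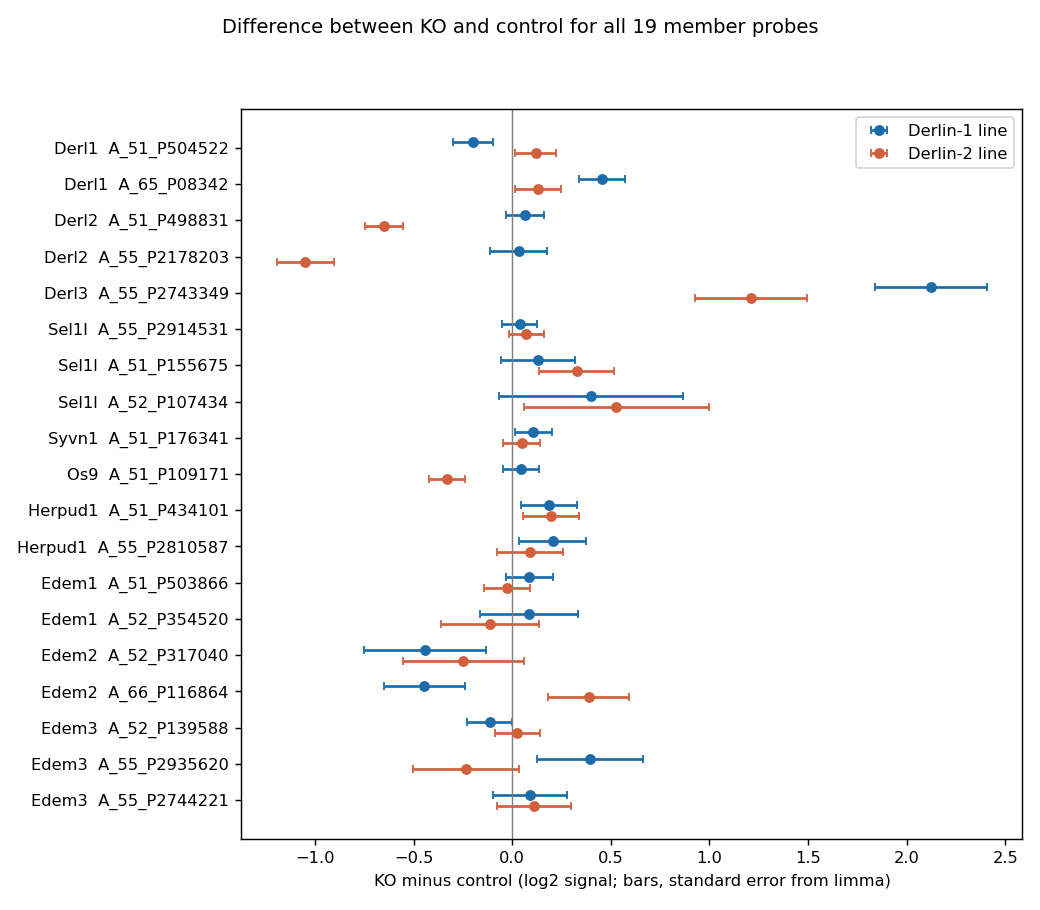
KO minus control in log2 signal for the 19 member probes in the Derlin-1 comparison (blue) and the Derlin-2 comparison (orange), with the standard error from limma as bars. Derl3 stood at 2.12 and 1.21, the Derl2 probes at -0.65 and -1.05 under Derlin-2 deletion, and most other probes within 0.5 of 0.

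Across the whole set, both KO arrays lay above both controls for 8 of 19 probes in the Derlin-1 comparison (17.9% of all probes) and below them for 3 (17.8% of all probes). For Derlin-2 they lay above for 8 of 19 (17% of all probes) and below for 4 (14.2% of all probes). With 1 brightest probe per gene, 5 of 10 genes were above and 2 below in the Derlin-1 comparison (16.2% and 17.9% of all genes). On the Derlin-2 arrays 5 of 10 genes were above and 3 below (17.9% and 14.6% of all genes). The KO arrays were above control in both lines for 4 probes, namely the cDNA clone probe of Derl1, Derl3, the brightest Sel1l probe and Syvn1. How many of all probes lay above control in both lines was not counted. The median difference of the 19 probes was 0.087 in the Derlin-1 comparison and 0.072 under Derlin-2 deletion, against -0.021 and 0.0080 over all probes. The probes of a gene share their transcripts, so the 19 are not independent of each other. These counts and medians include the probes of the targeted genes, Derl1 and Derl2.

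Whether the 2 deletions differed was tested as the Derlin-1 effect minus the Derlin-2 effect. Of the 19 member probes, 0 passed in limma, as did 0.00754% of all probes (3 of 39810). An unadjusted p under 0.05 was reached by 4 member probes (5.85% of all probes). These were the Derl2 probes, Os9 and the Edem2 probe A_66_P116864. The median difference of the effects over the member probes was 0.060, against -0.030 over all probes.

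Beyond the 10 genes, 40 further ERAD genes (p97 and its cofactors, other ER ubiquitin ligases and substrate receptors) were read, of which 39 had a probe above background. None passed the test in limma in either line, and 0 had an unadjusted p under 0.05 (4.69% and 5.51% of all probes). Both KO arrays were above both controls for 3 and below for 10 of the 39 in the Derlin-1 comparison (16.2% and 17.9% of all genes), and for 8 and 6 under Derlin-2 deletion (17.9% and 14.6% of all genes). The median differences were -0.045 and 0.021. The smallest p in the Derlin-1 comparison belonged to Selenos, a membrane protein that links Derlins to p97, with a difference of 0.18 (SE 0.10). It was followed by the ubiquitin shuttle Ubqln2 at -0.12 and by Vcp, which encodes p97, at -0.13. Within the Derlin-2 groups they belonged to the mannosidase Man1b1 at 0.23 (SE 0.096), the p97 cofactor Ufd1 at 0.18 and the p97 anchor Ubxn4 at -0.15.

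The 18 ER chaperones and folding enzymes lay higher in KO on most probes of the Derlin-1 line. Both KO arrays were above both controls for 16 of 18 (16.2% of all genes) and below for 1 (17.9% of all genes), with a median difference of 0.29. Their summed linear signal was 115550 to 116260 in Derlin-1 control and 156980 to 157290 in Derlin-1 KO. For the Derlin-2 mice the corresponding counts were 6 and 1 (17.9% and 14.6% of all genes) with a median of 0.085, and the sums were 110170 to 119560 in control and 130380 to 130450 in KO. An unadjusted p under 0.05 with a positive difference was reached by 8 genes in the Derlin-1 comparison and 5 under Derlin-2 deletion (in either direction, 4.69% and 5.51% of all probes), and 0 passed after adjustment in limma. Hspa5, which encodes the Hsp70 chaperone BiP, differed by 0.65 (SE 0.12) in the Derlin-1 comparison and 0.48 (SE 0.12) under Derlin-2 deletion. The disulfide isomerase Pdia6 differed by 0.55 and 0.44 (SE 0.11), and the ER stress-inducible secreted factor Manf by 0.47 and 0.31 (SE 0.098). The medians of the member genes by their brightest probe, 0.054 and 0.036, lay below those of the chaperones and above those of the further ERAD genes in each line. Whether these lists differ from each other was not tested.

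Of 10 sensors and transcription factors of the unfolded protein response, 0 passed the test in limma in either line. An unadjusted p under 0.05 was reached by 2 genes in the Derlin-1 comparison and by 0 under Derlin-2 deletion (4.69% and 5.51% of all probes). Both KO arrays were above control for 3 and below for 3 in the Derlin-1 comparison (16.2% and 17.9% of all genes), and for 3 and 2 under Derlin-2 deletion (17.9% and 14.6% of all genes), and the medians were 0.011 and -0.029. The ER-anchored factor Creb3l2 differed by 0.58 (SE 0.14) and 0.31 (SE 0.14). Xbp1, whose product drives many ERAD genes, differed by 0.33 and 0.28 (SE 0.13), and Atf6b by -0.27 and -0.25 (SE 0.14). The groups of these 3 genes were apart in both lines, but the genes were named for their small p, which favours such groups. They were not the only genes of the list apart in both lines.

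**Figure D3:**
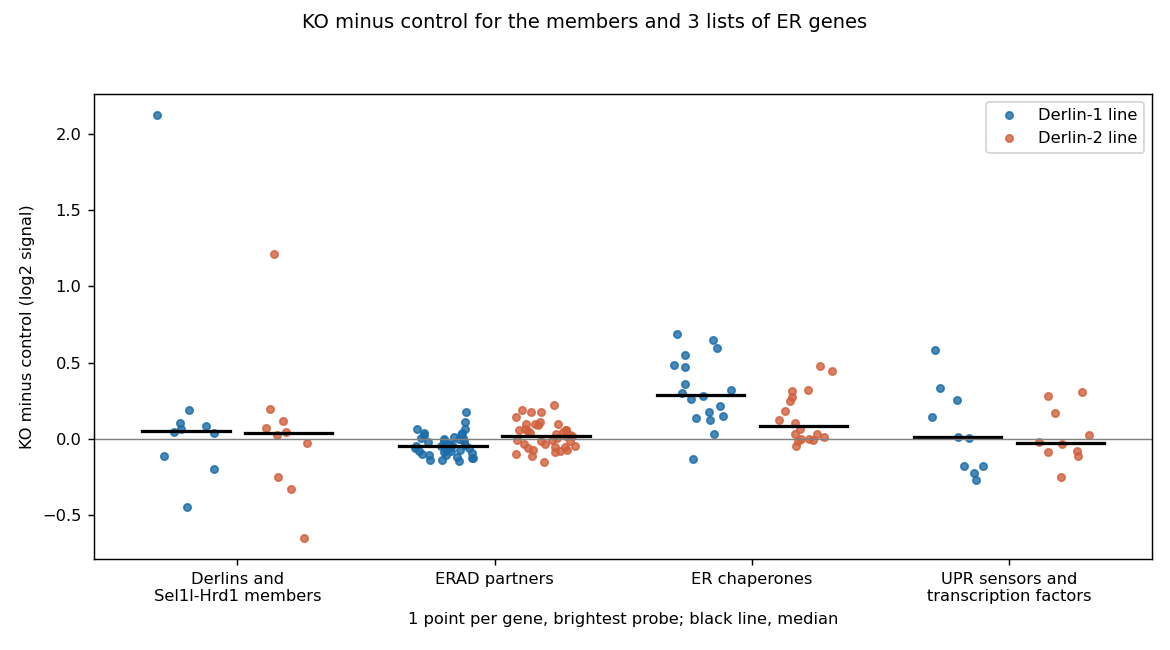
KO minus control in log2 signal for each gene by its brightest probe, with a black line at the median, for the 10 members, 39 further ERAD genes, 18 ER chaperones and 10 sensors and transcription factors of the unfolded protein response. The chaperones of the Derlin-1 line had a median of 0.29, the further ERAD genes stayed within 0.23 of 0, and Derl3 stood apart from all other genes at 2.12 and 1.21.

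Genes with a pattern like that of each Derlin were sought among 18055 genes above background on all arrays, by Pearson's r over the 8 arrays after centring each line on its mean. For Derl1 the closest were Vstm2a (r = 0.968), Tmem185a (r = 0.966) and Chd1l (r = 0.964). For Derl2 they were Gm15694 (r = 0.991), 3930401B19Rik (r = 0.981) and Slc1a1 (r = 0.979). For Derl3 they were Eif4ebp1, Celf6 and Gm33945. Eif4ebp1, which encodes a repressor of cap-dependent translation, followed it with r = 0.983, and differed by 0.36 and 0.18 between KO and control. Celf6 followed with r = 0.983 and Gm33945 with r = 0.975. With 8 arrays from 4 groups and many genes to choose from, high coefficients are easily found, so these values only describe the arrays.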

How the data were processed

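RNA was labelled with Cy3 and hybridised singly to SurePrint G3 mouse arrays. The deposited scanner files hold spot intensity, background-subtracted and detrended by the authors with Agilent Feature Extraction (10.7.1.1), and flags. The authors' deposited tables hold log2 values, quantile-normalized in GeneSpring (14.9) and shifted to each probe's median, used only as an alternative, plus fold changes that were not used. Here, control spots (3671 per array) and outlier spots were left out, and intensity was floored at 1 (never reached), log2-transformed and quantile-normalized over 8 arrays. No spot was saturated (0 on each array). Probes well above background on both arrays of at least 1 group were kept (40001). limma (3.58.1, R 4.3.3) was fitted on 4 group means with 4 residual and 2.08 prior degrees of freedom, with two-sided tests and Benjamini-Hochberg adjustment over all probes tested. An exact test of 2 against 2 arrays cannot go below 0.333, and the number of arrays limits the precision. The step was tested on simulated data. Named were all members, up to 3 genes per list and line with the smallest p, and the 3 genes most like each Derlin. The marker lists were granule and CA pyramidal neurons, astrocytes, oligodendrocytes, microglia, endothelium, choroid plexus, meningeal fibroblasts, blood and plasma cells. The members and lists were chosen with earlier results of these data known. Symbols come from the array design, whose build (mm9) differs from that of the promoter windows, so probes are given no positions.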

Additional observations from a re-analysis of the deposited data

Results flagged for a closer look

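Among the brightest probes of the member genes, 3 had KO arrays on opposite sides of both controls in the Derlin-1 and the Derlin-2 line. How many of all genes did so was not counted. The Derlin-1 effect minus the Derlin-2 effect was -0.32 (SE 0.15; limma adjusted p = 0.853) for the brightest Derl1 probe, 0.71 (SE 0.14; limma adjusted p = 0.531) for the brightest Derl2 probe and 0.37 (SE 0.13; limma adjusted p = 0.81) for Os9. None of the 3 passed the test of the difference. The dimmer Edem2 probe A_66_P116864 also lay on opposite sides, at -0.83 (SE 0.29; limma adjusted p = 0.81), and did not pass either. Derl1 and Derl2 are the genes targeted in these lines.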

How the results depend on the processing

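The number of member probes and of list genes past the threshold was 0 under every alternative run: normexp background correction, scaling to the 75th percentile, no filter and a stricter filter on dim probes, the 4 arrays of a line alone, a replicate block, the deposited log2 values, the last eighth of the rows left out, a floor of 10 and each array left out. The smallest adjusted p of a member probe ranged from 0.386 to 1 in the Derlin-1 line, from 0.0751 to 0.952 in the Derlin-2 line and from 0.106 to 1 for the difference of the lines. Over all probes, the 18 past the threshold in the Derlin-2 line became 0 to 55 and the 3 for the difference became 0 to 22, and the 0 in the Derlin-1 line became at most 1. Array numbers are only names (correlation of same-numbered deviations 0.27 and -0.098), and with the replicate block 0 member probes passed. The fit on 4 arrays and the deposited values were not run for the difference of the lines. Normexp shrank Derl3 to 1.63 and 0.94. Of 66 differences of single probes, those of the named list genes included, 40 moved by over 1.5 times or turned when 1 array was left out. Directions turned only where 1 array was left out, over these ranges of the log2 difference, and the cause was not tested. In the Derlin-1 line, Derl2 A_55_P2178203 ranged from -0.0040 to 0.070, Sel1l A_51_P155675 from -0.13 to 0.38, Edem1 A_51_P503866 from -0.025 to 0.20, Edem1 A_52_P354520 from -0.12 to 0.28 and Edem3 A_55_P2744221 from -0.058 to 0.24. In the Derlin-2 line, Sel1l A_52_P107434 ranged from -0.17 to 1.24, Herpud1 A_55_P2810587 from -0.088 to 0.27, Edem1 A_52_P354520 from -0.45 to 0.23, Edem2 A_52_P317040 from -0.67 to 0.17, Edem3 A_55_P2935620 from -0.66 to 0.19 and Edem3 A_55_P2744221 from -0.075 to 0.30. For the difference of the lines, single values were followed only for the brightest probe of each gene, so turns of dimmer probes are not listed. Among the brightest probes, Syvn1 ranged from -0.0021 to 0.13, Herpud1 A_51_P434101 from -0.16 to 0.14 and Edem2 A_52_P317040 from -0.61 to 0.23.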
